A study of Drosophila melanogaster with 3 samples.

Results

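Chromatin sites of Squeeze (sqz), a zinc finger transcription factor that helps to give certain neurons of the embryonic nerve cord their identity, were followed over 9 genes of the ecdysone response. They are EcR, usp, Eip75B, Eip74EF, Eip78C, Eip93F, Hr4, Hr39 and ftz-f1, 9 of 13945 annotated protein-coding genes, and they were named one by one; br, another early ecdysone gene, was left out. All peaks with a summit in the gene body or within 5 kb of it were taken, which gave 91 of the 6578 peaks in the authors' thresholded set. The data came from 3 ChIP-seq libraries of whole Drosophila melanogaster embryos, males and females together, aged 0 to 16 h, with DNA sonicated to 200 to 800 bp. ChIP-seq sequences the DNA that is recovered with a chosen protein. All libraries came from 1 transgenic line, strain sqz-GFP, in which GFP is fused to the C-terminus of sqz, and they are biological replicates 1, 2 and 3 of a single group. With a single genotype and age and no treatment, no condition was compared and no test was made. The libraries are described as input control in 1 label; they were taken as ChIP libraries because sqz is named as the antibody, TF ChIP-seq as the assay, and a control alignment is recorded apart from them. Since a library mixes all stages and cell types of the collection, a peak could not be placed in a stage or a tissue, and the lists hold no marker expression with which to check the tissue.

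Ecdysone is the steroid hormone that times insect moulting and metamorphosis. Its active form binds the EcR and Usp proteins, a pair of nuclear receptors that act together on DNA, and they switch on a small set of early genes whose products, mostly transcription factors, act in turn on later genes. The same cascade is used in the embryo, where a hormone pulse is needed for the late movements that shape it.

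At least 1 thresholded peak was found at 8 of the 9 genes (88.9%, 95% Wilson interval 56.5 to 98.0), with Eip93F the exception. The share was 41.9% over all protein-coding genes and 69.3% over the 1013 genes of 20 kb or more, a class that takes in 8 of the 9. A summit within 1 kb of a transcription start site (TSS) was found for 6 of the 9 genes (66.7%, 35.4 to 87.9), against 20.5% of all genes. Among genes of 20 kb or more it was 44.7%, and 5 of the 8 long genes of the cascade had such a summit. Of the 27 separate start sites of the 9 genes, 15 had a summit within 1 kb (55.6%, 37.3 to 72.4), against 21.6% of all 19252 protein-coding start sites. Start sites of 1 gene can lie close together and share a summit, so they are not independent, and the intervals cover counting error only.

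Peaks were unevenly spread over the cascade. Eip75B held 30, Hr4 held 22 and ftz-f1 held 14, which together is 66 of the 91. EcR had 8, Eip74EF and Hr39 had 7 each, usp had 2, Eip78C had 1 and Eip93F had 0. Several of these counts fell when 1 library was left out and only peaks that both others had were kept. A peak lost in this way can still be in 2 libraries, as all 14 of ftz-f1 were in at least 2. EcR had 4 without replicate 2 or without replicate 3. Hr4 had 13 and ftz-f1 had 8 without either, and Eip78C had 0 without either. Hr39 had 4 without replicate 2 and 3 without replicate 3, Eip75B had 19 without replicate 3, and usp had 1 without any 1 of them. Eip75B shared the highest count of any protein-coding gene with CG1677 and sbb, Hr4 stood at rank 7 and ftz-f1 shared rank 22. The loci, gene bodies with 5 kb on each side, covered 593.6 kb, 0.443% of the genome, and contained 1.38% of the thresholded peaks. Their density was 1.53 peaks per 10 kb, against 0.491 over the genome and a median of 0.349 over genes of 20 kb or more.

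**Figure D1:**
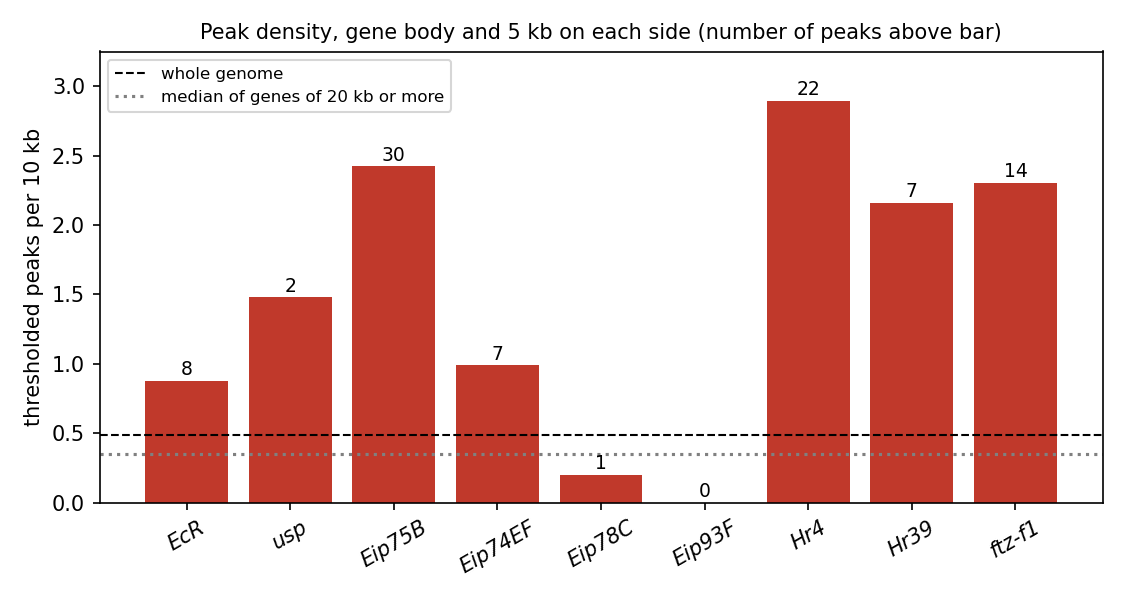
Bars give the number of thresholded peaks per 10 kb of each locus (gene body and 5 kb on each side), with the number of peaks above each bar; lines mark the whole genome and the median of genes of 20 kb or more. Hr4 (2.89), Eip75B (2.42), ftz-f1 (2.31) and Hr39 (2.16) were the densest, and Eip78C and Eip93F lay below both lines.

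The order of the leading genes by count was the same in each library. Among the 6578 strongest peaks of a library, as many as the thresholded set holds, Eip75B had 26, 27 and 26 in replicates 1, 2 and 3. Hr4 had 21, 17 and 19, and ftz-f1 had 13, 16 and 16. The ranges of these 3 counts did not overlap, but the loci differ in length, at 123.7, 76.0 and 60.7 kb in this order. Per kb, Hr4 was ahead of ftz-f1 in replicate 1 and behind it in replicates 2 and 3. EcR was the most variable, with 6, 9 and 13, a range that met that of ftz-f1 and took in those of Hr39 (6, 6 and 8) and Eip74EF (7 in each), so the order among them could not be told. For usp there were 2, 1 and 1. Eip78C had 1, 3 and 1, and Eip93F had 1, 0 and 0.

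The receptor gene EcR, on chromosome arm 2R at 6087873 to 6169087 (dm6, minus strand, FBgn0000546), is 81.2 kb long. Its 8 thresholded peaks lay inside the gene at 0.877 per 10 kb, a density above that of 72.8% of long genes. They were weak for the cascade, with a median signal of 232 where the 91 peaks together had 272 and all thresholded peaks 262; the signal is the strength given to each peak by the authors' caller, on a scale the sources do not state, and is used here only to rank and describe. The strongest, with a signal of 330, lay in an intron 15.6 kb from the outermost start site and held rank 2200 of 6578. The closest summits within 100 bp of it ranked 4614, 2219 and 5400 in replicates 1, 2 and 3. Replicate 3 had its best summit of the locus, at rank 1380, just outside that distance, 15.8 kb from the outermost start. The ranks therefore depend on the matching distance and do not set replicate 2 above replicate 3.

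EcR is transcribed from 4 separate start sites and makes protein isoforms that differ at their N-terminus. The outermost start, that of EcR-RA, had no thresholded summit within 1 kb. The pooled list, called on the 3 libraries together, had 1 there, 274 bp upstream, at rank 6949, just below the thresholded set. The start of EcR-RD and EcR-RE, further in, had a summit 410 bp downstream with a signal of 184. The start of EcR-RB and EcR-RC had 1 at 334 bp upstream with a signal of 189, and that summit also lay within 1 kb of the start of EcR-RG. EcR-RA, EcR-RD and EcR-RE encode 849 residues, the length of the A isoform, EcR-RB and EcR-RG encode 878, that of B1, and EcR-RC encodes 669, that of B2. A summit counts as met where 1 of the library's 6578 strongest summits lies within 100 bp. Each of these promoter summits was met in only 1 library, replicate 3 for the first and replicate 2 for the second. Other strong summits lay within 1 kb of the same starts, at rank 5801 in replicate 1 for EcR-RD and EcR-RE, and at rank 4668 in replicate 3, 209 bp upstream, for EcR-RB and EcR-RC. Replicate 3 also had one 307 bp upstream of the EcR-RA start, at rank 5748. An intronic summit of the gene, with a signal of 246, was nearer to the start of CG14589, a gene inside EcR, than to any start of EcR.

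The partner gene usp encodes the fly counterpart of the vertebrate retinoid X receptors. It is only 3.5 kb long, on chromosome X at 2038798 to 2042311 (minus strand, FBgn0003964), and both of its start sites had a summit. The outer one, of usp-RB, had a summit 123 bp upstream with a signal of 259, at rank 3356 and at ranks 4234, 4063 and 3890 in replicates 1, 2 and 3, which lie close together. That summit is exactly as far from the start of Actn, the gene for alpha-actinin, and could not be given to either. The inner one, of usp-RA, had a summit 102 bp upstream with a signal of 176, ranked 2282 and 9297 in replicates 1 and 2 and absent from within 100 bp in replicate 3. The outer summit with 100 bases on each side, chrX:2042334-2042534 (dm6, minus strand), is shown as a promoter site that all 3 libraries placed alike. The sequence takes in 19 bases of 5' UTR, and in it and those below, capitals mark AGGTCA or GAGAG or CAGGTAG on either strand; it had none of these words.
usp promoter: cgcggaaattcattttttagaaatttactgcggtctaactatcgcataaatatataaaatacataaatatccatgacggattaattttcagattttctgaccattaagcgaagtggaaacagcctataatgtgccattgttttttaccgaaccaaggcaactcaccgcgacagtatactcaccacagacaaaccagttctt

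Among the early genes, Eip75B was the most densely marked. It encodes a heme-binding nuclear receptor of the Rev-erb group and spans 113.7 kb on arm 3L, at 17950953 to 18064696 (minus strand, FBgn0000568). Of its 30 peaks, 29 lay in the gene body, 25 of them in introns and more than 500 bp from any start site, and 1 lay downstream. Of the 30, 19 were met in all 3 libraries and 25 in at least 2. Only 1 was met in none: the weakest, with a signal of 168 at rank 6443.

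Eip75B has 7 start sites, and the 4 inner ones were marked. Eip75B-RG had the strongest summit of the locus, 104 bp upstream, with a signal of 701 at rank 444; its ranks were 588, 322 and 700 in replicates 1, 2 and 3. Eip75B-RC had a summit 24 bp downstream with a signal of 630 and ranks of 517, 667 and 681. These 2 stood near the top in every library. The starts of Eip75B-RA and Eip75B-RD had weaker summits, of 186 and 181, each met in 2 libraries. The 3 outer starts, of Eip75B-RF, Eip75B-RE and Eip75B-RB, encode a product of 1412 residues, whereas the inner ones encode 991, 1199, 1355 and 906. None of these 3 had a thresholded summit, and the first summit of the gene lay 34.9 kb from the outermost start. Since that stretch is drawn by the thresholded peaks themselves, its lack of them is a description only. The pooled list had 7 summits in it and 73 in the other 78.9 kb, and the libraries had 6, 5 and 4 against 69, 76 and 68. The best of the 7 was at pooled rank 6688 with a signal of 163, next to the end of the thresholded set, 694 bp upstream of the Eip75B-RE start.

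Between the inner starts, several intronic summits of Eip75B were nearly as strong as its promoters. One of 553, in the intron 10964 bp upstream of the Eip75B-RC start, ranked 1819, 424 and 1115 in replicates 1, 2 and 3, so replicate 2 placed it highest. One of 521 ranked 797, 985 and 1075, and one of 497, on the other side of the Eip75B-RC start, 1486, 1104 and 847; in both the libraries lay close together. The single peak outside the gene, 1.7 kb past its 3' end, had a signal of 421 and ranks of 1234, 1436 and 2220.

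**Figure D2:**
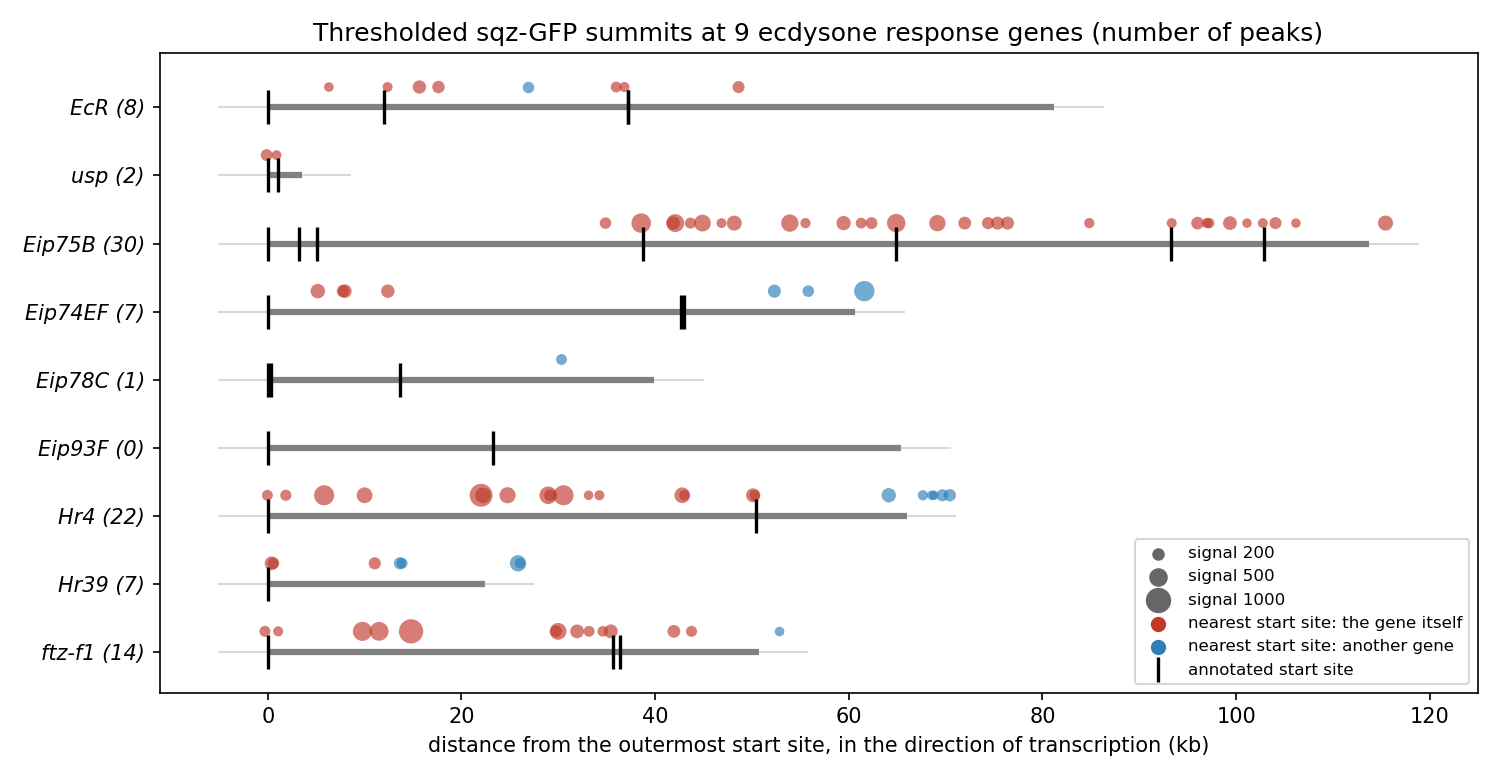
Each row is 1 gene, drawn from its outermost start site in the direction of transcription (horizontal axis in kb); grey bars are gene bodies, thin lines the 5 kb on each side, black ticks annotated start sites, and circles thresholded summits with an area in proportion to signal. Red circles have the gene itself as nearest start site (75, among them the usp summit tied with Actn) and blue circles another gene (16). The first summit of Eip75B lies 34.9 kb from its outermost start.

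The sequences of the strongest promoter summit and the strongest intronic summit of Eip75B are given to show 1 site of each kind. The first is chr3L:18026036-18026236 and the second chr3L:18022518-18022718, both dm6 and read on the minus strand, that of the gene. The intronic site, at 3.4 kb from the Eip75B-RG start, had a signal of 596 and ranks of 978, 555 and 666 in replicates 1, 2 and 3. TGACCT, the complement of AGGTCA, lies across its summit. The intronic windows here and below were picked after their values were seen.
Eip75B promoter: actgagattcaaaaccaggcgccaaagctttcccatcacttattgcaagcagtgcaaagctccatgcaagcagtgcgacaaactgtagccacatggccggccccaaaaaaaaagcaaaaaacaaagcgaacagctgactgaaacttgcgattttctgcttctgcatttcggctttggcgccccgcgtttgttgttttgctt
Eip75B intron: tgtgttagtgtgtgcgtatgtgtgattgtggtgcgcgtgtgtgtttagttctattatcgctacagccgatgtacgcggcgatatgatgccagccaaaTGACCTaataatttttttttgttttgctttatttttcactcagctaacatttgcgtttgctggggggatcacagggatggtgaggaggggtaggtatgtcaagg

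Eip74EF encodes an ETS-domain transcription factor and is 60.7 kb long, on 3L at 17558672 to 17619325 (minus strand, FBgn0000567). None of its 3 start sites had a thresholded summit within 1 kb, and the nearest lay 5161 bp into the gene. The strongest peak of the locus, with a signal of 766 and ranks of 532, 366 and 345 in replicates 1, 2 and 3, lay beyond the 3' end of Eip74EF. It was 65 bp from the start of CycT, which encodes the cyclin of an elongation kinase, and 2 more summits in the gene were also nearer to CycT than to any Eip74EF start. In the gene's first part 4 summits, with signals of 285 to 388, lay between 5.2 and 12.4 kb from the outer start, and each was met in at least 2 libraries. The next 39.9 kb, which reach past both inner starts, had no thresholded summit, but 13 pooled ones, of which the best had rank 7601.

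Eip78C encodes another receptor of the Rev-erb group and Eip93F a DNA-binding protein that acts late in the cascade. Eip78C, on 3L at 21226609 to 21266503 (plus strand, FBgn0004865), had 1 thresholded peak in 39.9 kb. It lay 30.3 kb into the gene, 1098 bp from the start of CG43218, a gene inside Eip78C, and had a signal of 217 and ranks of 3677 and 4010 in replicates 2 and 3. Replicate 1 instead had a summit 3 bp from the Eip78C-RB start, at rank 6420, which neither of the other libraries had within 1 kb. Eip93F, on 3R at 21949114 to 22014539 (plus strand, FBgn0264490), had no thresholded peak in 65.4 kb, as was true of 311 of the 1013 genes of 20 kb or more. Its best pooled summit had rank 14495 and a signal of 90.3, and those at its 2 start sites had ranks 16735 and 16295. In replicates 2 and 3 its best ranks were 20532 and 13747. Replicate 1 alone had a summit among its strongest 6578, at rank 6351, and that lay past the 3' end of the gene.

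**Figure D3:**
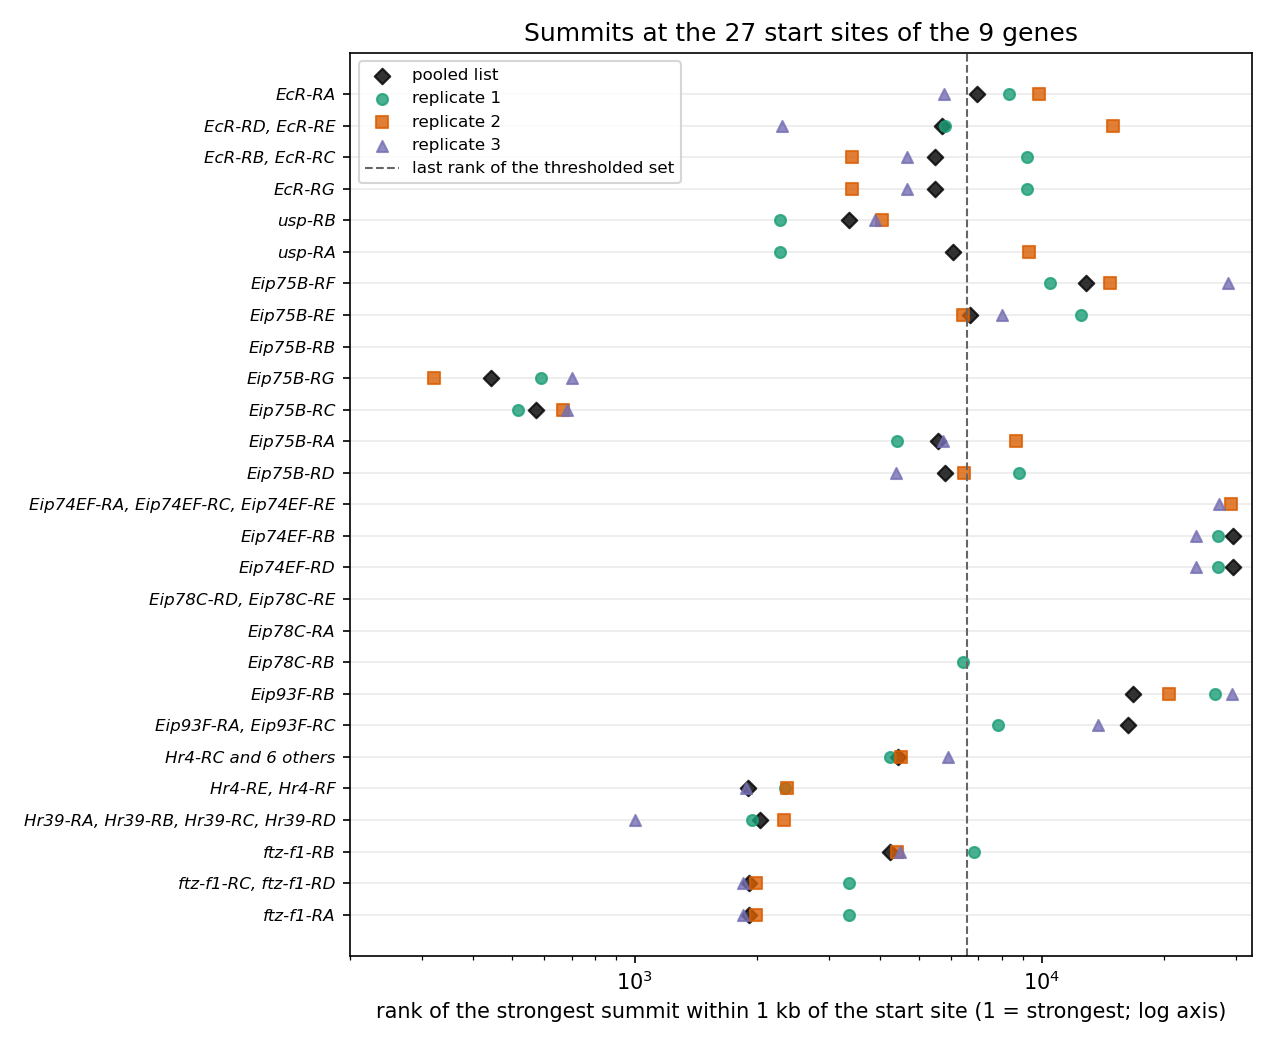
For each of the 27 start sites (rows, by transcript name), points give the rank of the strongest summit within 1 kb in the pooled list and in each library list (horizontal log axis, rank 1 strongest); the dashed line is rank 6578, the last of the thresholded set, and a missing point means that the list had no summit there. Eip75B-RG and Eip75B-RC lie at rank 700 or better in all lists, and no pooled point of Eip74EF, Eip78C or Eip93F lies left of the line.

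Hr4 encodes a nuclear receptor needed at the onset of metamorphosis. In the thresholded set its locus was the densest of these loci, with 2.89 peaks per 10 kb, above 98.5% of long genes. Among the strongest peaks of each library it was denser than that of ftz-f1 in replicate 1 only. The gene spans 66.0 kb on X at 1941940 to 2007956 (plus strand, FBgn0264562). Of its 22 peaks, 16 lay in the body and 6 in the flanks, and 6 had the start of PIG-K or east, its downstream neighbours, as the nearest. Both start sites were marked. The outer had a summit 47 bp upstream (signal 218). The inner, of Hr4-RE and Hr4-RF, had its strongest 259 bp upstream (signal 357). A weaker thresholded summit, with a signal of 219, lay nearer the inner start, 60 bp upstream, and was met in no library. The outer summit ranked 4239, 4507 and 5885 in replicates 1, 2 and 3. The stronger inner summit ranked 2340, 2371 and 1874, above the outer in every library. The peaks of highest signal were in the intron between them: 968 at 22.0 kb from the outer start, 743 at 5.8 kb and 740 at 30.5 kb. The first of these ranked 182, 234 and 199 in the libraries, the second 193, 746 and 410 and the third 860, 333 and 366, so the first was the steadiest. Close beside the outer start, 1859 bp inside the gene, lay a summit with a signal of 230. The library summits closest to it ranked 1059, 23552 and 5375 in replicates 1, 2 and 3. Those of replicates 2 and 3 lay 62 and 96 bp from it, so they may not be the summit that replicate 1 had.

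Sequence is given for the inner promoter summit of Hr4, chrX:1991941-1992141, and for its strongest intronic summit, chrX:1963864-1964064, both dm6 and plus strand. The promoter window had 9 overlapping matches of GAGAG, a word bound by the GAGA factor, and the intronic window had none of the marked words.
Hr4 promoter: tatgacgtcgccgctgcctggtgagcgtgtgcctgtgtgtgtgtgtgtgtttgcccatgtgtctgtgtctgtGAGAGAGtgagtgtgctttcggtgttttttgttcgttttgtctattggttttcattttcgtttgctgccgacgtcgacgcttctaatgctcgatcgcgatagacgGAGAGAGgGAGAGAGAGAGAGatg
Hr4 intron: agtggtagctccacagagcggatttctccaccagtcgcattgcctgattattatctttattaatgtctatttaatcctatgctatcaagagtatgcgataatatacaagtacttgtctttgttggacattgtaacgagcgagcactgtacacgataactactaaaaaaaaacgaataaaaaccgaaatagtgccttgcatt

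Hr39 and ftz-f1 encode related nuclear receptors. Hr39, on 2L at 21237250 to 21259675 (plus strand, FBgn0261239), is 22.4 kb long and has 1 start site, with a summit 382 bp downstream (signal 344, rank 2037). A further thresholded summit, with a signal of 250, lay 581 bp downstream. The library summits closest to the first lay 77, 100 and 81 bp from it in replicates 1, 2 and 3, with ranks of 8771, 2327 and 1003. Those of replicates 2 and 3 were on opposite sides of it, so they may not be the same summit. Replicate 1 had another, of rank 1942, within the same 1 kb. The strongest peak of the locus, with a signal of 495 and ranks of 905, 1031 and 1071, lay 134 bp from the start of its downstream neighbour CG8671. Of the 7 peaks at Hr39, 4 were nearest to another gene, CG8671 or l(2)k14505. The promoter window of Hr39, chr2L:21237532-21237732 (dm6, plus strand), is shown as its only marked start.
Hr39 promoter: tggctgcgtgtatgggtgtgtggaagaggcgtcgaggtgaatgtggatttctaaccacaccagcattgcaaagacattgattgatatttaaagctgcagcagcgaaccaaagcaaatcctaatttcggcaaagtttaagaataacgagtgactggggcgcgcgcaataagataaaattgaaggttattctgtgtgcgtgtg

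The ftz-f1 gene, whose product works with the segmentation protein Ftz in the early embryo and as a competence factor in the prepupa, had the strongest peak of the 9 loci. It is 50.7 kb long, on 3L at 18750607 to 18801309 (minus strand, FBgn0001078), with 14 peaks. All were met in at least 2 libraries and 6 in all 3. The strongest had a signal of 1088, at rank 141 of 6578, and lay in the long intron 14.8 kb from the outer start. It ranked 274, 118 and 136 in replicates 1, 2 and 3. Peaks of 677 and 654 lay at 9.8 and 11.5 kb, so the 3 strongest of the locus fell in 1 stretch of the intron. The next, of 521 at 5586 bp upstream of the ftz-f1-RC start, ranked 548 and 675 in replicates 2 and 3, and replicate 1 had no summit within 100 bp of it. All 3 start sites had a summit within 1 kb. That of ftz-f1-RB, which encodes 1027 residues, was weaker (224, ranks 6807, 4415 and 4492) than that of ftz-f1-RC and ftz-f1-RD (356, ranks 3359, 1983 and 1845), which encode 803 or 853; the second also lay within 1 kb of the ftz-f1-RA start. The inner summit was above the outer in every library. A summit past the 3' end, with a signal of 171, lay 146 bp from the start of Atg3, an autophagy gene.

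The inner promoter summit of ftz-f1, chr3L:18765786-18765986, and the strongest intronic summit, chr3L:18786414-18786614, are printed for the same comparison, both dm6 and read on the minus strand of the gene. The promoter window had 12 overlapping matches of GAGAG and a G+C share of 57.7%, and the intronic window had 41.8% and none of the marked words.
ftz-f1 promoter: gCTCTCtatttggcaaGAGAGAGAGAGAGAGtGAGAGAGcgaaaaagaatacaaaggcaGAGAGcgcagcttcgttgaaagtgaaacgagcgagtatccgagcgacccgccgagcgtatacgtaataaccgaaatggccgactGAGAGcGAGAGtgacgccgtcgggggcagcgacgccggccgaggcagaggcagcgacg
ftz-f1 intron: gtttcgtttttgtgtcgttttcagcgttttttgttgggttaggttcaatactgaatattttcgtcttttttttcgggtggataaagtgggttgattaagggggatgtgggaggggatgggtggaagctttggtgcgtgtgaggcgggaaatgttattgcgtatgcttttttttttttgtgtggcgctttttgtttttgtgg

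**Figure D4:**
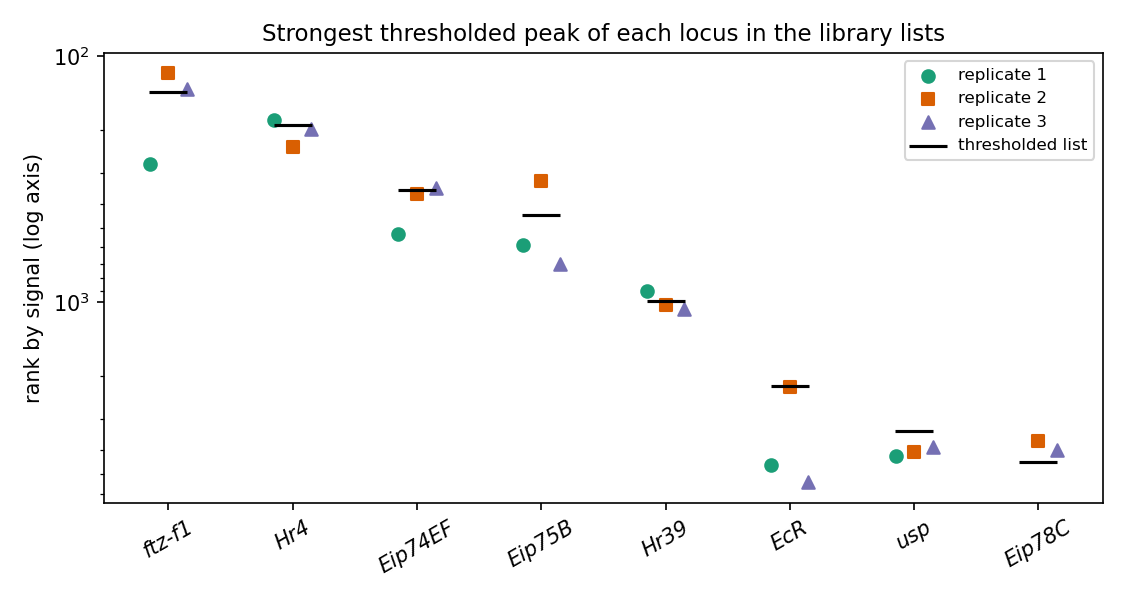
Points give the rank, in each library list, of the strongest thresholded peak of each locus (vertical log axis, strongest at the top), and bars its rank in the thresholded list. Each point is the closest library summit within 100 bp. The peaks at ftz-f1 and Hr4 lie at rank 274 or better in all libraries. That at EcR runs from 2219 to 5400, but replicate 3 had a summit of rank 1380 just outside that distance. Eip78C has no point for replicate 1, and Eip93F has no peak to show.

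A larger share of the cascade's peaks than of all thresholded peaks lay in introns and far from start sites, which is given as a description with no test. The peaks were taken at long genes, with a median of 60.7 kb against 2.2 kb for all genes. The part of length in these shares was not tested. Introns held 66 of the 91 (72.5%, against 41.9% of all thresholded peaks), and 22 lay within 500 bp of a start site (24.2%, against 37.9%). One lay between genes (1.10%, against 18.2%); the peaks were chosen by gene. The median distance to the nearest start site was 4276 bp, against 1238 bp. The stretch between the first and the last start site was where most peaks lay. In the 8 genes with several start sites it held 64 peaks in 307.8 kb, 2.08 per 10 kb, and the gene bodies past the last start held 9 in 173.3 kb, 0.519 per 10 kb. Over all 633 genes of 20 kb or more with several start sites the densities were 0.947 and 0.369. The 64 peaks were unevenly spread, with 27 at Eip75B, 15 at Hr4 and 10 at ftz-f1. EcR had 7, Eip74EF 4 and usp 1, and Eip78C and Eip93F had 0, so the pooled density is mainly that of the genes with most peaks.

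Library support was much like that of other peaks. Of the 91 summits, 50 were met in all 3 libraries (54.9%, 44.7 to 64.8, against 48.6% of all thresholded summits), 77 in at least 2 (84.6%, against 81.4%) and 2 in none. Replicate 1 met the fewest, 64, with 74 for replicate 2 and 78 for replicate 3; over all peaks the shares were 68.2%, 80.6% and 79.2%. With the thresholded set cut by signal into 4 parts of like size, 20 of 22 summits in the strongest part were met in all 3 libraries, then 23 of 29 and 6 of 21, and in the weakest part 1 of 19. Over all thresholded peaks the shares fell likewise, from 90.2% through 69.8% and 31.6% to 2.68%; since only the strongest peaks of a library can be met, such a fall follows in part from the definition. Spearman's rho of the ranks in pairs of libraries was 0.54 for replicates 1 and 2 (77 summits), 0.57 for 1 and 3 (80) and 0.73 for 2 and 3 (81), a description over peaks that share loci and libraries. At the limit of the thresholded set, the last members inside had signals of 168 and lay at Eip75B and Hr4, and the first outside, 163 at Eip75B and 161 at ftz-f1, differed from them by little. Taking each library's own 6578 strongest peaks, 7, 6 and 6 of the 9 genes had a summit within 1 kb of a start site in replicates 1, 2 and 3, where 25.6%, 20.1% and 20.4% of all genes had one. Eip74EF and Eip93F were without one in every library, and Eip78C in replicates 2 and 3.

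Short words were counted in each summit with 100 bases on either side, on both strands. AGGTCA is the half-site that many nuclear receptors bind. It was found at 11 of the 91 summits (12.1%), against 263 of all 6578 thresholded summits and 4.06% of weaker pooled ones. Eip75B had 8 of the 11, at 26.7% of its 30 summits, and the other 61 had 3 (4.92%), a split that was made after the values were seen. AAGGTCA, the longer form bound by Ftz-f1 and its relatives and always also a match of the first, was at 5 of 91 (5.49%, against 1.47%). By the same split, Eip75B had 3 of these 5 (10% of its summits) and the other 61 had 2 (3.28%). Only at 1 Eip75B summit did AGGTCA lie across the summit itself, and at 1 ftz-f1 summit it ended 1 bp away; at the other 9 it was 36 to 95 bp off. GAGAG was at 37 (40.7%, against 31.2%), with 50% of the Eip75B summits and 36.1% of the other 61. AAAAAA or its complement was at 59 (64.8%, against 71.7%). CAGGTAG, bound by the early activator Zelda, was at 0 of 91, which allows up to 3.30% (against 1.09%). The median G+C share was 42.8%, against 39.8%; its part in the word counts was not tested. A match is a run of letters, not a bound site.

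Other genes tied to the hormone are given by list, on the share with a summit within 1 kb of a start site. Of 10 cofactors of the receptor, 8 had one, at the chaperone genes Hsp83 (1016) and Hsc70-4 (776), the coactivator gene tai (661) and the remodeller gene Iswi (535) most strongly. Of 20 other response genes 9 had one, led by Ldh (720), Kr-h1 (700), the transcription factor gene vri (577) and the cell death gene hid (560). The Kr-h1 summit lay 998 bp from the start, at the edge of the window. Of 14 other nuclear receptors 3 had one, Hnf4 (395), Hr51 (249) and Hr3 (193), which at 21.4% is near the share over all genes. Replicate 2 had no summit within 100 bp of that at Hnf4, and replicate 1 had none at Hr3. None of the 11 genes matched for hormone synthesis and uptake had one, which allows up to 27.3%, and 1 of them, shd, the hydroxylase that makes the active hormone, had peaks within 5 kb. The share over all genes was 20.5%. The lists differ in length, with medians of 7.7, 3.5, 8.5 and 2.5 kb in this order, against 60.7 kb for the 9 genes and 2.2 kb for all, and the part of length in these counts was not tested.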

How the data were processed

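The 3 libraries form 1 group. Per the file records, peaks were called by the authors on dm6, library by library and for all 3 together, against 1 shared control alignment, and derived a thresholded list by the irreproducible discovery rate, a measure of rank agreement between replicates. The sources used here do not give the aligner, caller or threshold. Each deposited peak has a signal value of unstated scale and a −log10 q-value; the deposited −log10 q-value has a ceiling and was not used. The summit offset is in bp. Without read counts, depth is unknown; each unthresholded list has 30000 peaks, and the thresholded peaks are the 6578 of highest signal in the pooled list.

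Genes and start sites came from Ensembl release 115 (BDGP 6.54), sequence from the RefSeq Release 6 assembly, which dm6 uses. Positions count from 1. Scripts used Python 3.11.15 with numpy 2.4.6, pandas 2.3.3 and scipy 1.17.1 and were tested on simulated peaks. Summits under 500 bp apart, 12 neighbouring cases at these loci, were kept apart. All genes with a peak nearest their start were named, and up to 4 of each list by signal. The genes, lists and words were chosen with earlier results of these data known, so no list was tested. For hormone synthesis 11 of 13 symbols matched.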

Additional observations from a re-analysis of the deposited data

How the results depend on the processing

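The number of peaks at the loci, 91, became 51 among the 3289 thresholded peaks of highest signal, 50 when only peaks met in all 3 libraries counted and 283 in the pooled list, and 53 to 67 when 1 replicate was left out and peaks met in both others were kept, with 57 without replicate 2 and 53 without replicate 3. As a share of the peak set these are 1.55%, 1.56% and 0.943%, against 1.38%. Margins of 1 and 10 kb gave 82 and 92, and merging of near summits 79. Start sites with a summit, 15 of 27, became 6 and 7 in the first 2 sets and 7 to 10 without a replicate, with 8 lacking replicate 2 and 7 lacking replicate 3. The share over all start sites, 21.6%, fell to 13.7% and 12.9% in those sets and to 15.6%, 14.7% and 14.8% without replicates 1, 2 and 3. The share met in all 3 libraries, 54.9%, was 41.8% at 50 bp, 70.3% at 250 bp, 81.3% against the full library lists and 84.3% among the 3289 strongest peaks, and 58.2% to 73.6% when 2 libraries were asked. Over all thresholded peaks it was 48.6%, and 33.2%, 61.0%, 81.8% and 80.0% under the same settings, and 55.9% to 66.3% with 2 libraries; against the full lists the loci thus lay below all peaks, and elsewhere above. Over these settings, genes with such a start site ranged from 4 to 8, against 12.7% to 37.3% of all genes, and those with a peak at the locus from 6 to 9, against 25.9% to 62.8%. The highest counts, 8 and 9, came from the pooled list, where the shares over all genes were the highest as well. RefSeq gene starts, 1 per gene, gave 4, against 18.6%. No paired analysis was possible because the replicates form a single group.

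Counts over 9 genes give wide intervals, and depth is unknown. The control alignment shared by all lists means that an error in it enters each of them. The thresholded set is a cutoff on pooled signal, so peaks near its end depend on where it fell. Leaving out a replicate filters a set that was still called with it.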
